A study of Homo sapiens with 6 samples.

Results

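SOX transcription factors are described here through 10 listed genes of the family, SOX2, SOX3, SOX4, SOX8, SOX9, SOX11, SOX12, SOX17, SOX18 and SOX21, out of 27738 genes in 1 deposited table. RNA was sequenced from U87, an established human glioblastoma cell line, in 3 libraries labelled EGFR+vIII TLR2 KO and 3 labelled EGFR+vIII. Both groups carried EGFR, the epidermal growth factor receptor, and vIII, a constitutively active deletion mutant of it. The knockout removes TLR2, a cell surface receptor of innate immunity, by the labels. The number of knockout clones, and whether each library had a culture of its own, is not given in the sources used here, so the spread behind each p-value is that between libraries and may be technical. Each SOX gene was found by its RefSeq accession, keeping the accession with the highest base mean, and each of the 10 had 1 accession.

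SOX proteins bind DNA through a high mobility group (HMG) box, bend it, and act together with partner factors. SOXB1 proteins such as SOX2 hold neural stem and progenitor cells in their state, SOXB2 proteins such as SOX21 counteract them, SOXC proteins act in neuronal differentiation, SOXE proteins in glia and cartilage, and SOXF proteins in endothelium and endoderm. In glioblastoma, SOX2 is known as a factor of stem-like tumour cells, and SOX4 as a gene that transforming growth factor beta (TGF-beta) induces and that acts upstream of SOX2.

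The authors' deposited table gives, for each accession, a base mean (the mean over all 6 libraries of counts divided by size factors), a log2 fold change with its standard error (SE) and an adjusted p, with no value per library. Base means in the authors' deposited table sum to 11240272 normalized reads, and the size factors of the libraries ranged from 0.928 to 1.07. The table names the knockout first, so fold changes were read as knockout over EGFR+vIII. All 8 TLR2 accessions were listed at 0 in the authors' deposited table, so neither the knockout nor that order could be checked on the targeted gene; read the other way, each direction given here would turn. A gene at 0 or at few reads is not thereby silent or scarce. TUBB, a tubulin, was listed at 0 in all 7 of its accessions in the authors' deposited table, and GAPDH, a glycolytic enzyme of every cell, reached a base mean of at most 6.19 over 6 accessions. VIM, the filament protein vimentin, had a base mean of 126476 in the authors' deposited table, while GFAP, the filament protein of astrocytes, was listed at 0 in all 4 accessions.

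Of the 10 SOX genes, 6 had enough reads for an adjusted p, SOX11 and SOX18 had reads but no adjusted p, and SOX3 and SOX8 were listed at 0. SOX2 and SOX21 fell several-fold in the knockout and SOX12 fell slightly, while SOX4, SOX9 and SOX17 did not pass the test. Thus 3 of 6 tested members were called lower at an adjusted p under 0.05, where 12.7% of 9372 tested genes were. Of the same 6 members 0 were called higher, where 12.4% of all tested genes were, and SOX4 alone among them had a positive log2 fold change with an unadjusted p under 0.05 (p = 0.0295 in the authors' deposited table). The median log2 fold change of the 6 members was -0.39 in the authors' deposited table, beside 0.02 over all tested genes. Both a scaling and a size threshold were also applied as stricter tests. With the Wald scores of all accessions divided by their own central spread of 1.75, 5.20% of tested genes were called lower, and when tested against a 1.5-fold change 2.39% were. SOX2 and SOX21 kept their calls in both and SOX12 in neither. In RNA of bulk cells, fewer cells with a transcript and less of it per cell cannot be told apart.

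**Figure D1:**
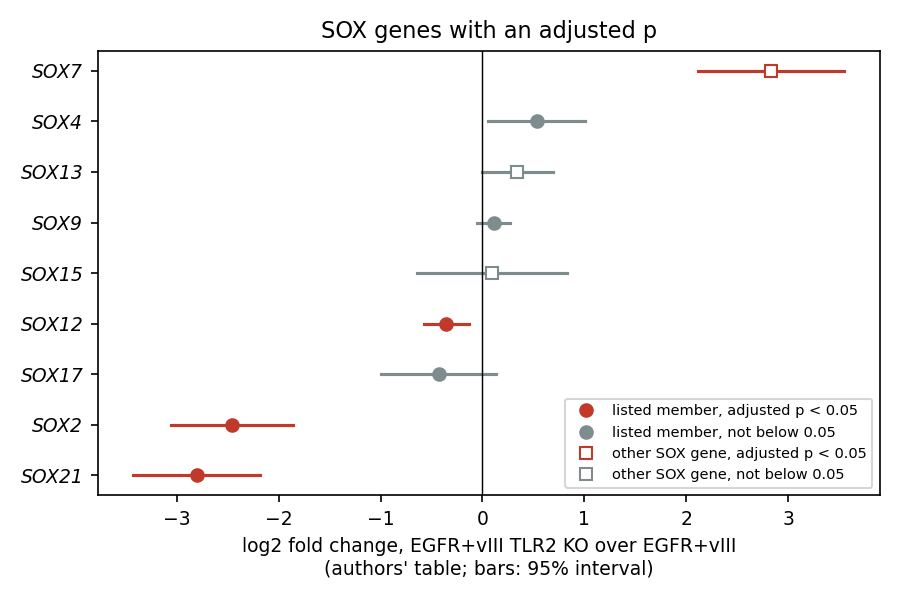
Log2 fold change, EGFR+vIII TLR2 KO over EGFR+vIII, of the 9 SOX genes with an adjusted p (points) with 95% intervals from the deposited SE (bars); circles are listed members, squares other SOX genes, and red marks an adjusted p under 0.05. SOX21 at -2.80 and SOX2 at -2.45 lie far to the left, SOX12 at -0.35 lies just left of 0, and SOX7, which is not a listed member, lies at 2.83.

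Levels differed widely between the members. From the base means of the authors' deposited table and GENCODE transcript lengths, SOX9 stood first at 689 normalized reads per kb over all 6 libraries. SOX12 followed at 182 normalized reads per kb, SOX2 at 27.5, SOX21 at 20.6, SOX4 at 15.3 and SOX17 at 1.34, again from the authors' deposited table. SOX18 at 0.179 and SOX11 at 0.0206 normalized reads per kb came last in the authors' deposited table. These levels join both groups and have no spread over libraries, so whether neighbours in that order differ was not tested. With each base mean split by its fold change in the authors' deposited table, the order of SOX2, SOX21 and SOX4 differs between the groups. In the knockout SOX4 came to 18.1 normalized reads per kb, SOX2 to 8.48 and SOX21 to 5.17. In EGFR+vIII the same split gave 12.5 for SOX4, 46.4 for SOX2 and 36.1 for SOX21. Such a split, here and for single genes below, takes the deposited fold as the ratio of the group means. For SOX17 it would give 2.68 normalized reads in the knockout and 3.61 in EGFR+vIII. The reads recovered for SOX17, given below, averaged 0.634 and 5.66. Whether splits at higher base means are off in the same way was not tested.

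**Figure D2:**
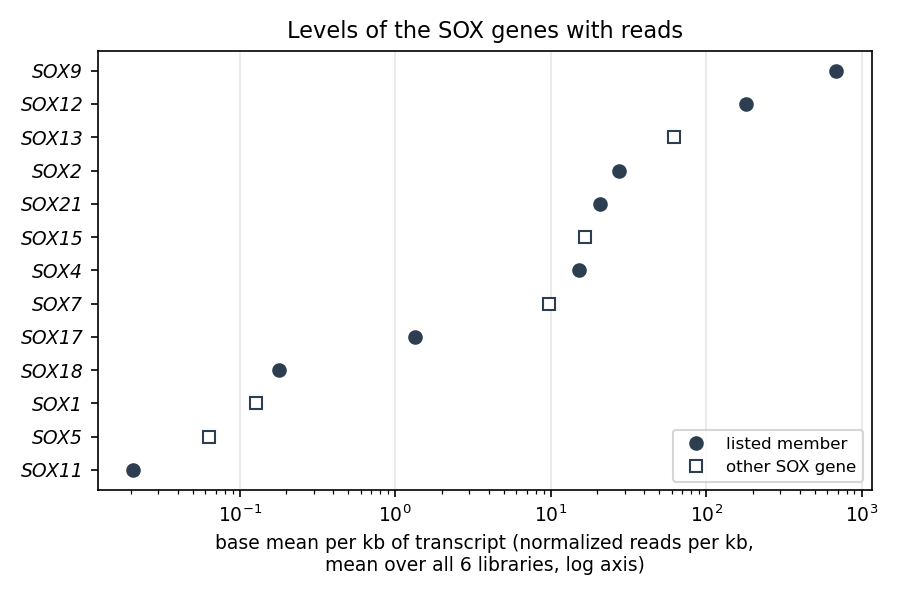
Base mean per kb of transcript (horizontal, log axis, normalized reads per kb over all 6 libraries) of each SOX gene with reads; filled circles are listed members and open squares other SOX genes. SOX9 stands at 689 and SOX11 at 0.0206 normalized reads per kb.

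Few stretches of sequence are shared between SOX transcripts. Of 2464 stretches of 50 bases in the SOX2 transcript, 40 also occur in another SOX transcript, as do 11 of 2729 in SOX21. SOX4, SOX9, SOX12 and SOX17 share 0 such stretches. Besides SOX2 and SOX21, only SOX1 shares any, with 40, so the 11 of SOX21 occur in SOX2, SOX1 or both. Whether shared sequence affected the counts was not tested. SOX1, the paralog closest to SOX2 in that group, had 2 reads in all.

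SOX2 is the SOXB1 factor that keeps neural stem cells undifferentiated. It is a gene of 1 exon on the plus strand at chr3:181711925-181714436 (GRCh38). Its base mean was 69.0 and its log2 fold change -2.45 (SE 0.30, adjusted p = 2.64e-14) by the authors' deposited table, 5.48-fold lower in the knockout. At that fold the base mean in the authors' deposited table splits into 21.3 normalized reads in the knockout and 117 in EGFR+vIII. In fold change SOX2 was number 16 from the bottom of 9372 tested genes. Among the 109 tested genes with a base mean within 5% of that of SOX2, the next lowest log2 fold change was -2.32 in the authors' deposited table. Among the 1496 within 2-fold of its base mean, 8 were at least as low, SOX2 included.

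No tested gene next to SOX2 was as low. SOX2 lies inside the span of SOX2-OT, a long noncoding RNA gene whose 6 accessions were all listed at 0 in the authors' deposited table. Whether this overlap affected the count of SOX2 was not tested. The nearest tested gene towards lower coordinates, CCDC39, lies 1032 kb away, with a log2 fold change of 0.60 (adjusted p = 0.135) by the authors' deposited table. The nearest towards higher coordinates, ATP11B, a phospholipid-transporting ATPase, lies 1079 kb away, with -0.30 on the log2 scale (adjusted p = 0.000701) by the authors' deposited table. Over the 20 nearest tested genes the median log2 fold change was -0.08, with 1 called higher and 5 lower.

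SOX21, the SOXB2 factor that represses SOXB1 target genes and drives progenitors towards differentiation, had the lowest fold change of the tested SOX genes. It is a gene of 1 exon on the minus strand at chr13:94709622-94712545 (GRCh38). Its base mean was 57.4 and its log2 fold change -2.80 (SE 0.32, adjusted p = 2.88e-17) by the authors' deposited table, 6.99-fold lower in the knockout. At that fold the base mean in the authors' deposited table splits into 14.4 normalized reads in the knockout and 100.4 in EGFR+vIII. SOX21 was number 7 from the bottom of 9372 tested genes. Of the 122 tested genes with a base mean within 5% of its own, the next lowest stood at -2.41 on the log2 scale, by the authors' deposited table. Of the 1545 within 2-fold, 4 were at least as low, SOX21 included. The 95% interval was -3.42 to -2.19 for SOX21 and -3.05 to -1.86 for SOX2, from the SE in the authors' deposited table; these overlap, and their difference was not tested.

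SOX21-AS1, a noncoding RNA gene on the same chromosome that begins 171 bases beyond the 5′ end of SOX21 and does not overlap it, was also called lower. Its base mean was 26.6 and its log2 fold change -1.48 (SE 0.36, adjusted p = 0.000334) by the authors' deposited table. Its call was lost under both stricter tests. On the other side of SOX21, 74961 bases away, GPR180 had a log2 fold change of -0.36 (adjusted p = 0.0153) by the authors' deposited table. The 20 tested genes nearest to SOX21 had a median of -0.26 on the log2 scale, with 2 called higher and 6 lower, so SOX21 stood far below its neighbourhood.

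**Figure D3:**
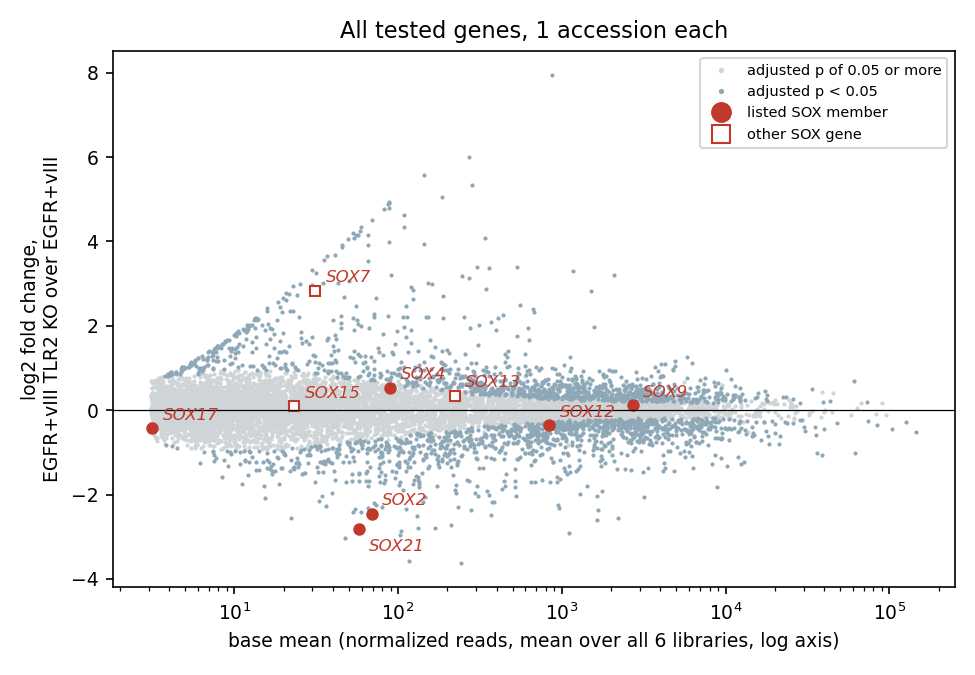
Log2 fold change, EGFR+vIII TLR2 KO over EGFR+vIII (vertical), against base mean (horizontal, log axis, normalized reads over all 6 libraries) for the 9372 tested genes, 1 accession each; red circles are the 6 tested members and red squares other SOX genes. SOX2 and SOX21 lie on the lower edge of the cloud at base means of 69.0 and 57.4, SOX7 lies near its upper edge, and SOX9 lies within it at 2710.3.

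Promoter sequences are shown for the pair that fell several-fold (SOX2, SOX21), for SOX12, which fell slightly, and for SOX4, which did not pass the test, so that genes of both outcomes can be read side by side. They are the RefSeq windows on GRCh38.p14 from 250 bases before to 50 bases after the start, 5′ to 3′ on the gene's strand. They lie at chr3:181711675-181711974 (plus strand, SOX2), chr13:94712496-94712795 (minus strand, SOX21), chr20:325302-325601 (plus strand, SOX12) and chr6:21593501-21593800 (plus strand, SOX4). Capitals mark every match, on either strand, to the CCAAT box (CCAAT), the octamer bound by POU factors (ATGCAAAT), SOX motifs (ACAAAG and ACAATG), the TATA box (TATAAA), a GLI motif (TGGGTGGTC) and the NF-kB consensus.
SOX2: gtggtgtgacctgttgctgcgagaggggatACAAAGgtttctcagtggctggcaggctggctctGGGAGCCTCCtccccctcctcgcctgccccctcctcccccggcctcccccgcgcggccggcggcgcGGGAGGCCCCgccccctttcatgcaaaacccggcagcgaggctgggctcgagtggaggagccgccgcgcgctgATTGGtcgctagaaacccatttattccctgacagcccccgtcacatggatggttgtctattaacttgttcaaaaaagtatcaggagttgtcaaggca
SOX21: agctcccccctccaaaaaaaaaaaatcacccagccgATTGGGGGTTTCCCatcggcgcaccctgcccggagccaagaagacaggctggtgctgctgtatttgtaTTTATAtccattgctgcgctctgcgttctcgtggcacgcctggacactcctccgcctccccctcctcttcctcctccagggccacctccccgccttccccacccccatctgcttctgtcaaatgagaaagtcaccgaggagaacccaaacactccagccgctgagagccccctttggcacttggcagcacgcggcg
SOX12: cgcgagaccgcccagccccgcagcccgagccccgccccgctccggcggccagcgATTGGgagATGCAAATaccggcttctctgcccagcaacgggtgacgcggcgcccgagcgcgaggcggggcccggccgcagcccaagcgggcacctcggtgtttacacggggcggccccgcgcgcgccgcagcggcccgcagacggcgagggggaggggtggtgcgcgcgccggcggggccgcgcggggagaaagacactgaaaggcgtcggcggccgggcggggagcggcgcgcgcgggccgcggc
SOX4: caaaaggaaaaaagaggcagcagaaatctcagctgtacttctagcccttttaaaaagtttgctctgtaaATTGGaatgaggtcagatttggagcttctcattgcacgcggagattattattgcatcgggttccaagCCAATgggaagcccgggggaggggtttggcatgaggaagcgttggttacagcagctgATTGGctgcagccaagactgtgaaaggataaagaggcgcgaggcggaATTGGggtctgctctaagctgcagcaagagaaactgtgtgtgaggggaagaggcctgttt

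Each of the 4 windows holds a CCAAT box, which 34.6% of 35116 promoters of the same length hold. In SOX2 it begins at position -47 from the start site, read as ATTGG, and in SOX4 it occurs 4 times, at positions -181, -114, -57 and -10. SOX2 holds ACAAAG at position -220, a motif in 16.1% of all promoters. The NF-kB consensus, found in 11.3% of all promoters, occurs in SOX2 at positions -186 and -120 and in SOX21 at -211 and -210. Both SOX21 matches overlap each other and the CCAAT match at -214. All 3 lie within the span of SOX21-AS1, which begins 171 bases beyond the 5′ end of SOX21. SOX21 also holds TATAAA on the other strand at -146, which 11.5% of all promoters hold. SOX12 holds the octamer at -188, which 1.77% of all promoters hold. The GLI motif, in 0.236% of all promoters, and ACAATG, in 10.8%, are in none of the 4 windows. GC content was 63.3% for SOX2, 60.0% for SOX21, 80.3% for SOX12 and 49.3% for SOX4, beside a median of 58.7% over all promoters. A match is a run of letters and not a measured binding site.

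SOX12, a SOXC factor expressed broadly in the embryo, is a gene of 1 exon on the plus strand of chromosome 20 (325552 to 330224, GRCh38). Its base mean was 840.4 and its log2 fold change -0.35 (SE 0.11, adjusted p = 0.00812) by the authors' deposited table, 1.28-fold lower in the knockout. At that fold the base mean in the authors' deposited table splits into 738 normalized reads in the knockout and 943 in EGFR+vIII. Among 1403 tested genes within 2-fold of its base mean, 268 were at least as low, so the size of the fall was common at that level. The call was lost under both stricter tests and with Benjamini-Yekutieli adjustment. NRSN2-AS1, 300 bases before SOX12, stood at -0.41 on the log2 scale (adjusted p = 0.347) and TRIB3, 50.5 kb after it, at 0.84 (adjusted p = 0.095) by the authors' deposited table. Of the 20 nearest tested genes, 1 was called higher and 0 lower, with a median of 0.15.

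SOX4, the SOXC factor that TGF-beta induces in glioma, is a gene of 1 exon on the plus strand of chromosome 6 (21593751 to 21598619). It had a base mean of 89.6, and its log2 fold change was 0.53 (SE 0.24, adjusted p = 0.104) by the authors' deposited table, opposite in sign to SOX12. Its 95% interval, not adjusted for the number of genes tested, was 0.05 to 1.01. Both neighbours of SOX4 were called higher: CDKAL1, a tRNA-modifying enzyme 361 kb away, at 0.37 on the log2 scale (adjusted p = 0.0203), and CASC15, a noncoding RNA gene 67.8 kb away, at 1.02 (adjusted p = 0.0183) by the authors' deposited table. The 20 nearest tested genes had a median of 0.26, with 6 called higher and 1 lower. SOX11, the SOXC factor of immature neurons, had 1 read in all 6 libraries, so a difference was not detectable at this depth.

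SOX9, the SOXE factor of cartilage and of glial specification, was the most abundant SOX gene per length. It is a gene of 3 exons on the plus strand of chromosome 17 (72121020 to 72126416). With a base mean of 2710.3, its log2 fold change was 0.11 (SE 0.08, adjusted p = 0.388) by the authors' deposited table. The 95% interval was -0.05 to 0.27 on the log2 scale. Its nearest tested neighbours were noncoding RNA genes: CASC17, 919 kb away, stood at -0.27 on the log2 scale (adjusted p = 0.707), and LINC00511, 472 kb away, stood at 0.14 (adjusted p = 0.821) by the authors' deposited table. The 20 nearest tested genes had a median of 0.06, with 5 called higher and 1 lower. SOX9-AS1, a noncoding RNA gene that ends just before SOX9, had 0, 2 and 1 reads in the knockout and 1, 2 and 6 in EGFR+vIII, groups that overlap (exact two-sided permutation p = 0.5). SOX8, the other SOXE member, was listed at 0; its gene overlaps LOC102723964, so its count is uncertain. SOX10, the SOXE factor of oligodendrocytes and Schwann cells, was also listed at 0. Its gene overlaps POLR2F, so the count of SOX10 is uncertain too.

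SOX17, a SOXF factor of endoderm and arterial endothelium, is the least abundant member that was tested. Its base mean of 3.14 lies just above the lowest tested base mean of 3.11 in the authors' deposited table. A base mean that low can be broken down into whole reads per library, since 1 read adds a different fixed amount in each library. SOX17 had 2, 0 and 0 reads in the knockout libraries and 12, 6 and 0 reads in the EGFR+vIII libraries. The groups overlap, because 1 EGFR+vIII library held none. The mean was 0.634 ± 1.10 normalized reads in the knockout and 5.66 ± 5.63 in EGFR+vIII (SD, n = 3 each), with an exact two-sided permutation p of 0.4, where 0.1 is the smallest that 3 against 3 allow. The ratio of the summed reads, knockout over EGFR+vIII, each sum divided by the summed size factors of its group, was 0.119 (exact 95% interval 0.0134 to 0.497, counting error only). The log2 ratio of the group means was -3.16, while the deposited log2 fold change was -0.43 (SE 0.29, adjusted p = 0.327) by the authors' deposited table. Such a gap was general: of 247 tested accessions with a base mean under 4 and at least a 2-fold difference in reads, all 247 had a smaller log2 fold change in the authors' deposited table. The deposited fold change of SOX17 therefore understates the difference in its reads.

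The nearest tested neighbours of SOX17 were MRPL15, a mitochondrial ribosomal protein gene, at -0.06 on the log2 scale (adjusted p = 0.686), and RP1, a photoreceptor microtubule gene, at 0.68 (adjusted p = 0.0483) by the authors' deposited table. The 20 nearest tested genes had a median of -0.13, with 3 called higher and 4 lower. Of the nearest neighbours of the members, those called (ATP11B, SOX21-AS1, GPR180, CDKAL1, CASC15 and RP1) lost their calls under both stricter tests. SOX18, a SOXF factor of lymphatic and blood vessels, had 2 reads in all, 1 in the knockout and 1 in EGFR+vIII. SOX3, the SOXB1 member on the X chromosome, had none.

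**Figure D4:**
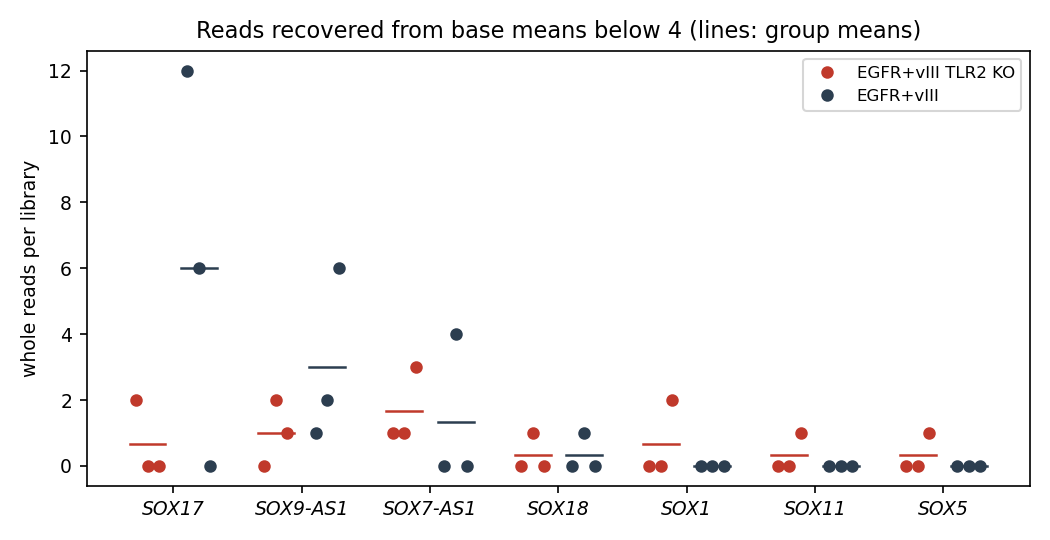
Whole reads in each of the 3 EGFR+vIII TLR2 KO libraries (red, left) and the 3 EGFR+vIII libraries (dark, right) for SOX genes and their antisense genes with a base mean under 4; short lines are group means. SOX17 has 2, 0 and 0 reads in the knockout and 12, 6 and 0 in EGFR+vIII.

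Among the 9 other SOX genes, 3 were tested and SOX7 was called higher. SOX7, a SOXF factor of early endothelium and endoderm, had a base mean of 31.2, and its log2 fold change was 2.83 (SE 0.37, adjusted p = 2.72e-13) by the authors' deposited table, 7.12-fold higher in the knockout. At that fold the base mean in the authors' deposited table splits into 54.7 normalized reads in the knockout and 7.68 in EGFR+vIII. The call was kept under both stricter tests. SOX7 was number 54 from the top of all tested genes, and of 134 genes with a base mean within 5% of its own 5 were at least as high, itself included. SOX7-AS1, which overlaps SOX7, had 1, 1 and 3 reads in the knockout and 0, 4 and 0 in EGFR+vIII; the strandedness of the library is not given in the sources used here, so reads of the pair cannot be told apart where they overlap. SOX13, a SOXD factor, stood at 0.34 on the log2 scale (adjusted p = 0.169) and SOX15, of group G, at 0.09 (adjusted p = 0.909) by the authors' deposited table. The gene of SOX15 overlaps MPDU1, so its count is uncertain. Of 8 endothelial markers, 3 were tested and 0 were called, with a median of 0.08 on the log2 scale. PECAM1, an adhesion molecule of endothelium, was at 0.49 (adjusted p = 0.0981), CDH5, the gene of VE-cadherin, had a base mean of 0.539, and KDR, a receptor of vascular endothelial growth factor, had a log2 fold change of -0.13 (adjusted p = 0.552) by the authors' deposited table.

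Genes known to act with or beside SOX2 in neural stem cells were called in both directions. Of 32 such genes, 13 were tested, 4 were called higher and 3 lower, with a median log2 fold change of -0.16 in the authors' deposited table. Of all tested genes 12.4% were called higher and 12.7% lower, the shares against which this and the following lists stand. LIN28B, an RNA-binding protein of stem cells that blocks let-7 microRNAs, rose most, its log2 fold change being 4.80 (SE 0.34, adjusted p = 2e-44) at a base mean of 87.5 in the authors' deposited table. CHD7, a chromatin remodeller that binds with SOX2, was at 1.05 on the log2 scale (SE 0.14, adjusted p = 4.06e-12), and NES, the stem cell filament nestin, at 1.01 (SE 0.12, adjusted p = 1.15e-14) by the authors' deposited table. POU3F3, a POU-domain partner, rose by 1.22 on the log2 scale (SE 0.36, adjusted p = 0.00369) by the authors' deposited table. ZIC1, a zinc finger factor of the neural plate, was at -1.11 (SE 0.13, adjusted p = 2.41e-17) and HES1, the Notch target that represses differentiation, at -1.01 (SE 0.21, adjusted p = 9.68e-06) by the authors' deposited table. POU3F2, the best-known POU partner of SOX2 in glioblastoma, had -0.16 (adjusted p = 0.828) and OLIG2, another stem-like glioma factor, -0.18 (adjusted p = 0.745) by the authors' deposited table. The calls of POU3F3 and HES1 were lost under both stricter tests.

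Genes of the TGF-beta pathway, which acts upstream of SOX4, were lower where they were called. Of 20 genes, 12 were tested, 0 were called higher and 5 lower, with a median log2 fold change of -0.38 in the authors' deposited table. TGFBI, a matrix protein that TGF-beta induces, fell by 1.01 on the log2 scale (SE 0.07, adjusted p = 6.22e-43) at a base mean of 36086 in the authors' deposited table. The ligand TGFB1 fell by 0.58 (SE 0.13, adjusted p = 4.26e-05) on the log2 scale, by the authors' deposited table. LTBP1, which tethers latent TGF-beta, was at -1.37 (adjusted p = 0.00173), LTBP2, a relative in the matrix, at -0.41 (adjusted p = 0.00237) and PMEPA1, a feedback inhibitor, at -0.98 (adjusted p = 0.0443) by the authors' deposited table. Of these 5, TGFBI alone kept its call under the stricter tests. The receptor TGFBR2 had -0.35 (adjusted p = 0.594) and the signal transducer SMAD3 -0.08 (adjusted p = 0.903) by the authors' deposited table, and TGFB2 and TGFBR1 were listed at 0.

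Of 31 genes of the hedgehog, FGF and Wnt pathways, which set SOX gene expression in the embryo, 12 were tested, 1 was called higher and 4 lower. SHH, the ligand Sonic hedgehog, fell most, its log2 fold change being -2.25 (SE 0.28, adjusted p = 4.98e-14) at a base mean of 73.4 in the authors' deposited table, 4.75-fold lower in the knockout. DKK1, a secreted Wnt inhibitor, was at 0.51 on the log2 scale (SE 0.11, adjusted p = 2.13e-05) by the authors' deposited table. The receptor-signalling inhibitors SPRED1 and SPRY2 were at -0.44 (adjusted p = 2.07e-08) and -0.37 (adjusted p = 0.0116) by the authors' deposited table. SHH kept its call under both stricter tests, SPRED1 under the scaled scores, and DKK1 and SPRY2 under neither. The list's median was -0.24 on the log2 scale.

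**Figure D5:**
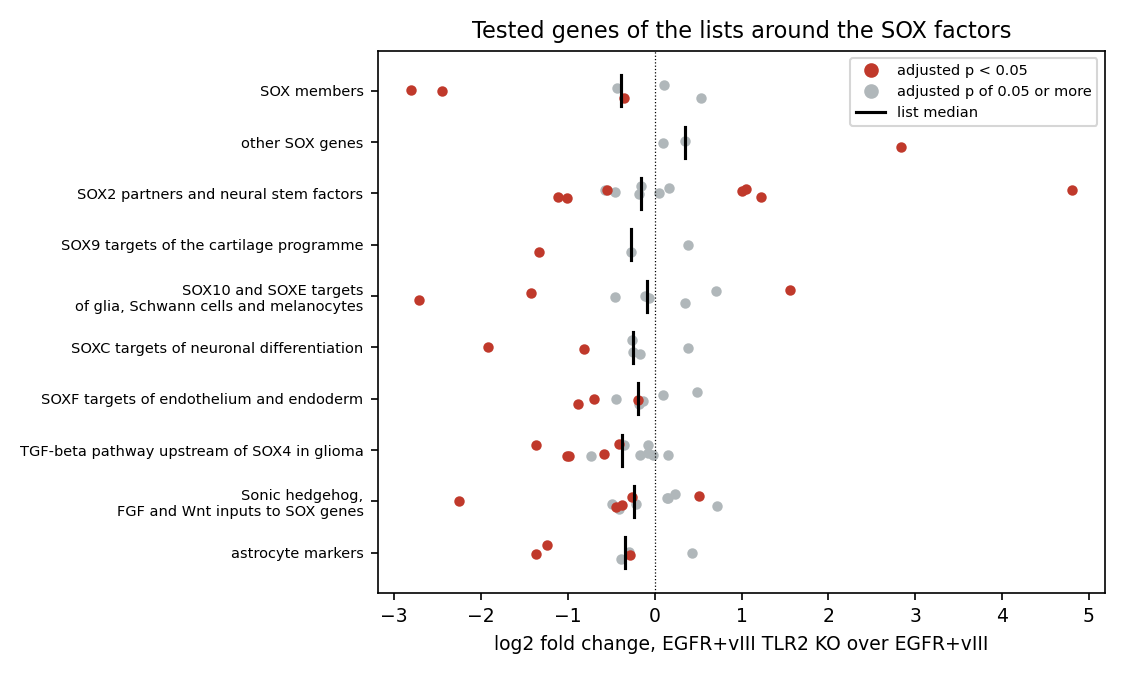
Log2 fold change, EGFR+vIII TLR2 KO over EGFR+vIII (horizontal), of each tested gene of the lists around the SOX factors (rows); red points have an adjusted p under 0.05, grey points do not, and black lines are list medians. LIN28B stands apart at 4.80 among SOX2 partners and neural stem factors, MBP at -2.71 and SHH at -2.25 in their lists.

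Genes listed as targets of the other SOX groups mostly had few reads in the table. Of 22 cartilage genes under SOX9, 13 were listed at 0, 3 were tested and 1, MATN3, a cartilage matrix protein, was called lower (list median -0.28) at -1.34 on the log2 scale (SE 0.29, adjusted p = 3.6e-05) by the authors' deposited table. COL2A1, the best-known SOX9 target, was listed at 0. Of 22 glial, Schwann cell and melanocyte genes under SOXE factors, 8 were tested, 1 was called higher and 2 lower, with a median of -0.09. MBP, the gene of myelin basic protein, was at -2.71 on the log2 scale (SE 0.20, adjusted p = 7.99e-42) by the authors' deposited table. This value is of 1 of its 6 accessions, and whether that one stands for the myelin transcript was not tested. CSPG4, the proteoglycan NG2, was at -1.42 on the log2 scale (SE 0.10, adjusted p = 1.09e-45) by the authors' deposited table. EDNRB, an endothelin receptor of melanoblasts and glia, was at 1.56 (SE 0.37, adjusted p = 0.000234) by the authors' deposited table. Of 8 oligodendrocyte markers, MBP among them, 6 were listed at 0, and CNP, a myelin enzyme and the other one with an adjusted p, had 0.79 on the log2 scale (adjusted p = 0.126) by the authors' deposited table.

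Of 20 neuronal genes under SOXC factors, 6 were tested, 0 were called higher and 2 lower, with a median of -0.26. RTN1, a reticulon of the endoplasmic reticulum in neurons, was at -1.92 (SE 0.10, adjusted p = 3.2e-82) and STMN1, a microtubule-destabilizing protein, at -0.81 (SE 0.30, adjusted p = 0.0295) on the log2 scale, by the authors' deposited table. Of the 8 neuron markers 2 were tested and 0 called, with a median of -0.21. Of 25 endothelial and endodermal genes under SOXF factors, 8 were tested, 0 were called higher and 3 lower, with a median of -0.19. NR2F2, a nuclear receptor of veins, was at -0.88 (SE 0.12, adjusted p = 2.4e-11), the endoderm factor GATA6 at -0.70 (SE 0.14, adjusted p = 9.99e-06) and EFNB2, the arterial ligand ephrin-B2, at -0.19 (SE 0.07, adjusted p = 0.0307) on the log2 scale, by the authors' deposited table. Of the calls in these 4 target lists, MBP, CSPG4 and RTN1 were kept under both stricter tests, NR2F2 under the scaled scores alone, and MATN3, EDNRB, STMN1, GATA6 and EFNB2 under neither.

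Of 16 astrocyte markers, 6 were tested, 0 were called higher and 3 lower, with a median of -0.35. GJA1, the gap junction protein connexin 43, was at -1.37 (SE 0.08, adjusted p = 1.4e-56), ID3, an inhibitor of differentiation factors, at -1.24 (SE 0.11, adjusted p = 3.71e-26) and VIM at -0.29 (SE 0.08, adjusted p = 0.00235) on the log2 scale, by the authors' deposited table. The call of VIM was lost under both stricter tests. Of 8 leucocyte markers 6 were listed at 0, and CD68 alone was tested, with a log2 fold change of -0.68 (adjusted p = 0.113) by the authors' deposited table. Summed base means of the marker lists were 45.1 for leucocytes, 87.4 for neurons, 220.03 for oligodendrocytes and 729.99 for endothelium in the authors' deposited table, low sums that, given the values of GAPDH and TUBB, do not show true low levels, and their part in the SOX results was not tested.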

How the data were processed

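RNA of 6 U87 libraries was compared in 1 deposited table of the authors' own comparison, 3 libraries a group; the submitters' processing notes name STAR, DESeq2 and hg38, and versions, aligner settings, counter, annotation release, library kit and strandedness were not given in the sources used here. Per the file headers, the authors deposited a base mean (a signal of abundance: counts divided by size factors, averaged over libraries), a log2 fold change and SE on the log2 scale, a Wald score, a p-value and an adjusted p. At base means under 4, where reads could be recovered, the fold changes are drawn towards 0; higher base means could not be compared in this way.

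Of 67933 accessions, 98.8% matched a gene in a RefSeq table of GRCh38.p14, the build of hg38, and 10303 had an adjusted p. Each gene is represented by its accession with the highest base mean and is called at the authors' deposited adjusted p under 0.05. Depth per library is not given; the 6 smallest base means are 1 read in 1 library, and the side comes from the sign of the fold change, which gave size factors and, for base means under 4, whole reads (all 588 tested accessions broke down in exactly 1 way; on simulated data 360 of 360 were recovered). Intervals and ratios of reads cover counting error only. With no counts per library in the table, the count test planned for that case was replaced by the authors' deposited test. Levels per kb use GENCODE 29 transcript lengths; 5 of the 10 members are in the promoter table (SOX2, SOX3, SOX4, SOX12 and SOX21).

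Members and lists were chosen with earlier results of these data known, so no p over a list was computed. Named genes are all members, other tested SOX genes, the nearest tested gene on each side of a member, up to 4 called genes with the largest absolute log2 fold change per list (up to 6 for SOX2 partners and TGF-beta), and POU3F2, OLIG2, NES, TGFB1, TGFB2, TGFBR1, TGFBR2, SMAD3, GFAP, COL2A1 and HES1; SOX2-OT, SOX7-AS1, SOX9-AS1, CNP, PECAM1, CDH5, KDR, CD68, GAPDH and TUBB were added after their values were seen. Python 3.11.15 with scipy 1.17.1 was used.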

Additional observations from a re-analysis of the deposited data

How the results depend on the processing

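SOX2 and SOX21 kept their direction and call in every alternative that gave a value (Wald scores scaled by their central spread, a change of more than 1.5-fold, no filter on low counts, centring on the median of all accessions or on the 20 nearest tested genes, and Benjamini-Yekutieli adjustment), with adjusted p from 1.59e-14 to 0.000143 for SOX2 and from 1.66e-17 to 1.70e-05 for SOX21. SOX4, SOX9 and SOX17 were called in none. SOX12 was at -0.37 when centred on the median, at -0.51 relative to the 20 nearest tested genes, and at -0.35 in the other alternatives. It lost its call with scaled scores (adjusted p = 0.396), for a change of more than 1.5-fold (adjusted p = 1) and with Benjamini-Yekutieli adjustment (adjusted p = 0.0797). Its adjusted p ranged from 4.6e-05 to 1 over its alternatives. Among genes with a base mean of at least 100, which leaves out SOX2 and SOX21, 1 member was called lower in place of 3. Over all the other lists, 7 of 75 tested genes were called higher and 23 lower, beside 1159 and 1193 of all 9372; with scaled scores these were 4 and 10, beside 390 and 487, and for a change of more than 1.5-fold 4 and 8, beside 214 and 224. Counts of single lists moved by more than 1.5 times, or to or from 0, in 26 cases. In 156 cases they were unchanged or moved by no more than 1.5 times. These 156 include the leucocyte, endothelial and neuron lists, which had 0 calls in every setting. The cause was not tested. The log2 ratio of SOX17 from recovered reads, an alternative chosen after seeing the data, was -3.16 and ranged from -3.74 to -2.17 without 1 library; without the knockout library that held its reads there is no value.

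No paired analysis was possible because the table gives no value per library for most genes. Leaving out a library in the test could not be run for the same reason. Each member has 1 accession, so the next accession gave no value for the members. Over all the other lists, the next highest accession where tested gave 7 called higher and 20 lower, in place of 7 and 23. For a list gene with several accessions, a call therefore concerns the accession kept and not the whole gene. SOX11 and SOX18, with 1 and 2 reads, allow no comparison at this depth; for SOX17 the spread between libraries limits the test.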
